A study of Mus musculus with 10 samples.

Results

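The Hippo-YAP genes described here are 9 transcribed units of the time series, matched by gene symbol from a list drawn up with earlier results of these data known: the YAP-TEAD target genes Ctgf and Cyr61, Amotl2, the kinase genes Lats1 and Lats2, the coactivator gene Yap1 and the DNA-binding partner genes Tead1, Tead2 and Tead4. They are 9 of 40779 transcribed units (TUs) in the deposited table, each a stretch of nascent transcription on 1 strand. Per the study's methods, stretches over several larger genes were split at inner annotated starts followed by more transcription. On the same strand, the Lats1 TU begins directly after that of Nup43, and the Tead2 TU ends directly before that of Slc6a16. All 9 passed the filter on low counts, which left 28459 TUs (14997 carried a gene symbol), and each of the 9 symbols named 1 TU. Nascent RNA was read with TT_chem-seq, in which new RNA is labelled with 4-thiouridine (2 mM for 10 min), fragmented, captured and sequenced, so a TU of a gene counts introns and exons together. Every group was made of E14 mouse embryonic stem cells (genotype SOX2-FKBP), a line the study's methods give as E14Tg2A (129/Ola) with IB10 cells named for the SOX2 targeting, in which the endogenous SOX2 protein carries an FKBP degron that dTAG-13 directs to the proteasome. Per the study's methods the knock-in was homozygous and was obtained by cloning, and the number of clones behind these libraries was not given in the sources used here. Cells were kept without serum on gelatin with LIF, the MEK inhibitor PD0325901 and the GSK3-β inhibitor CHIR99021 in all groups. The not treated group (NT) received DMSO, and the others 500 nM dTAG-13 for 0.5, 1, 2 or 6 hours (hours post depletion, hpd), with 2 libraries in each of the 5 groups. Untagged cells given dTAG-13 were not analysed here, so an effect of the compound and one of SOX2 loss cannot be told apart. Per the study's methods the cells got fresh medium before treatment, and the time of NT in DMSO was not given. An effect of this handling cannot be told apart either.

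In the Hippo pathway, the kinases MST1/2 with SAV1 activate LATS1 and LATS2, which phosphorylate YAP and its relative TAZ and hold them outside the nucleus. When the kinases are quiet, YAP enters the nucleus and binds TEAD proteins, which bring it to DNA, and target genes such as Ctgf, Cyr61 and Amotl2 are transcribed. In the early mouse embryo TEAD4 and YAP direct the outer cells towards trophectoderm, and in cultured cells the pathway reads cell shape, contacts and the substrate. Regulation of YAP itself is largely at the level of the protein, which nascent RNA does not show.

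Library totals ran from 11131490 to 25854106 fragments, and values are given as CPM, the usual unit relative to library size, after TMM scaling. Each pair of replicates differed by more than counting error (a chi-square of 2.69 to 9.03 per degree of freedom), so no pair was 1 library deposited again. The labels do not say whether replicates were separate cultures, and p-values measure only the spread between these libraries, which may be technical. Naive stem cell markers were all present (12 of 12 tested), with a summed level of 4582 to 5003 CPM in NT and 3868 to 4118 CPM at 6 hpd. Sox2, whose protein and not its gene is the target of dTAG-13, stood at 263 CPM in NT and differed from it by -0.0076, -0.12, 0.093 and 0.063 on the log2 scale at 0.5, 1, 2 and 6 hpd (SE 0.11, none called). Tested markers of trophectoderm (4 of 8 listed, Elf5 and Hand1 not in the table) summed to 10.8 and 16.8 CPM in the NT libraries and 7.22 to 7.66 CPM at 6 hpd. Those of primitive endoderm (6 of 8) summed to 76.2 to 78.7 CPM in NT, 60.0 to 61.0 CPM at 0.5 hpd and 56.8 to 60.6 CPM at 1 hpd. Their sum was 69.3 to 71.1 CPM at 2 hpd and 96.9 to 110.1 CPM at 6 hpd. Lama1 was the highest of them in NT (60.0 CPM) and stood at 29.2 CPM at 1 hpd. Dab2 was the highest at 2 hpd (32.3 CPM) and 6 hpd (49.7 CPM), so the sum does not give the course of each gene. Neural markers (3 of 6 tested) summed to 40.3 to 43.5 CPM in NT, 27.5 to 31.1 CPM at 2 hpd and at most 27.0 CPM in either library at 6 hpd. The fibroblast list, whose cell type is known for high Ctgf and Cyr61, had 2 of 8 markers tested, and its defining markers Col1a2, Col3a1, Postn, Twist2 and Lum were not in the table. Its sum of 9.45 to 12.3 CPM in NT and 27.0 to 42.3 CPM at 6 hpd was almost all Pdgfrb, with Col1a1 at 0.672 CPM in NT and 1.04 CPM at 6 hpd. The part of these shifts in the results was not tested. In bulk samples such as these, fewer cells of a type and less RNA per cell cannot be told apart.

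In untreated cells the 9 genes covered a wide range of nascent levels. Per kb of TU, Amotl2 was the highest at 4.64 ± 0.13 CPM per kb (SD, n = 2), followed by Tead1 at 3.07 ± 0.18 and Yap1 at 2.77 ± 0.21 CPM per kb. Tead2 (1.80 ± 0.22), Lats1 (1.77 ± 0.0044), Tead4 (1.77 ± 0.19) and Ctgf (1.58 ± 0.043 CPM per kb) formed a middle group, with Cyr61 at 0.802 ± 0.063 and Lats2 lowest at 0.217 ± 0.018 CPM per kb. The gaps between Tead1 and Yap1, and between each neighbouring pair from Tead2 down to Ctgf, were smaller than the summed SDs of the pair, while the other 4 gaps were larger. All 9 TUs ran past the annotated gene end, by 1540 bp for Ctgf to 22312 bp for Yap1. With the span of the RefSeq gene in place of the TU, Amotl2 (6.25), Yap1 (3.63) and Tead1 (3.28 CPM per kb of gene) stayed in front and Cyr61 (1.32) and Lats2 (0.260) at the end, with Yap1 now above Tead1 and the middle group ordered Tead2, Ctgf, Tead4 and Lats1 (2.53 to 2.15). With the length of the transcript that the deposited table gives beside each TU, Tead1 (5.06) was above Yap1 (3.63 CPM per kb of transcript) and Lats1 (3.23) led the middle group, so the order inside both groups depended on the length used. The Ctgf and Cyr61 TUs were the shortest, 4.71 and 4.98 kb, with 49.4% and 40.8% of their length in exons, against 3.27% for Tead4.

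**Figure D1:**
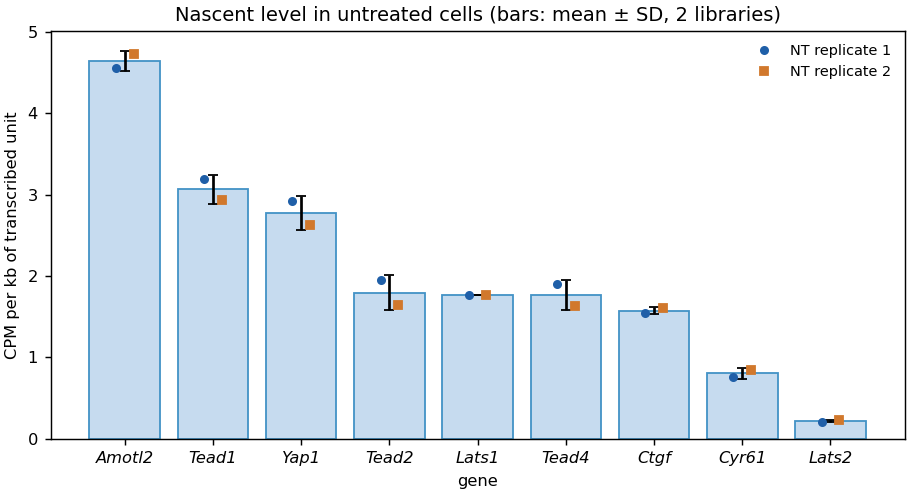
Nascent level of the 9 Hippo-YAP genes in untreated cells, in CPM per kb of transcribed unit (vertical axis). Bars give the mean and SD of the 2 NT libraries and points each library, from Amotl2 at 4.64 CPM per kb down to Lats2 at 0.217 CPM per kb.

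The promoters of the genes that carry the results are shown where a reference window was matched. RefSeq windows on GRCm38.p6 were found for 6 of the 9 genes (Cyr61, Amotl2, Lats1, Lats2, Yap1 and Tead2, with 2 starts for Lats2), and none for Ctgf, Tead1 and Tead4. The 250 bases before each start were searched on both strands for GGAATG (reverse complement CATTCC), a core motif of TEAD factors, and for CATTGT (reverse complement ACAATG), a SOX core. Cyr61, Amotl2 and Yap1 each held 1 TEAD match, and none of the windows of these 6 genes held a SOX match. Of 32817 mouse promoter windows of the same length, 12.6% held the TEAD and 10.7% the SOX letters. The 3 windows with a match follow, 5′ to 3′ on the strand of the gene, with the TEAD letters in capitals, and the Yap1 window is cut to the bases outside annotated exons. The match began 103 bp before the start in Cyr61 (chr3:145649986-145650235, minus strand), 65 bp before it in Amotl2 (chr9:102717554-102717803, plus strand) and 141 bp before it in Yap1 (chr9:8004639-8004846, minus strand). The Amotl2 window lies inside the annotated gene and its TU, which begin farther upstream (at 102717091 and 102715354), before an annotated start downstream of both. A match is a description of letters and does not show that a factor was bound.
Cyr61: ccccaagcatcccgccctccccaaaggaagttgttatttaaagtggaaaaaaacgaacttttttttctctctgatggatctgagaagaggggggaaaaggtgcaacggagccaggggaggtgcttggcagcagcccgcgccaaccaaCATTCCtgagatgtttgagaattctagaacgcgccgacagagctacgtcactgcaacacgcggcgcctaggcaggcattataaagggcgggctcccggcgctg
Amotl2: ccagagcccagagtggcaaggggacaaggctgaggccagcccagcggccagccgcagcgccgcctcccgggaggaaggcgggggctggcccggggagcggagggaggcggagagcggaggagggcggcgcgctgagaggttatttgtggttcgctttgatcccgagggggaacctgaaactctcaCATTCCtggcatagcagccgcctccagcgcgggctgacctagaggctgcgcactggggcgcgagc
Yap1: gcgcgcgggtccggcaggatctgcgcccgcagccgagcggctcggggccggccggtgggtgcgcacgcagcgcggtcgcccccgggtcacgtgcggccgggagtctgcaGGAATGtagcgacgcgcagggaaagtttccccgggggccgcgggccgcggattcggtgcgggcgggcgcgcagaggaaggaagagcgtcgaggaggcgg

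Across the time course 6 of the 9 genes were called against NT at 1 or more time points, at a Benjamini-Hochberg adjusted p under 0.05 over all TUs in edgeR's quasi-likelihood test, where 18.8% of all TUs were. At 0.5 hpd 1 of 9 was called, Amotl2, which rose (1.31% of all TUs were called, 0.527% up and 0.787% down). At 1 hpd 4 of 9 were called, with Amotl2, Tead4 and Lats2 higher and Ctgf lower than NT (5.75% of all TUs, 2.15% up and 3.61% down). At 2 hpd 2 of 9 were called, Yap1 higher and Ctgf lower (9.83%, 4.26% up and 5.57% down), and at 6 hpd 4 of 9, Yap1 and Lats2 higher and Ctgf and Cyr61 lower (15.8%, 6.61% up and 9.2% down). The balance of directions among all called TUs depended on the scaling and tool, with 40.1%, 37.3%, 43.4% and 41.8% of calls up at the 4 time points here, 51.2%, 50.2%, 55.9% and 49.0% with DESeq2 and 34.8%, 27.3%, 28.8% and 31.9% with library totals. Leaving out 1 library moved these counts: to 2 at 0.5 hpd without either 2 hpd library, to 2 at 1 hpd without either NT or either 1 hpd library, to 1 at 2 hpd without either NT library or 2 hpd replicate 1, and at 6 hpd to 2 without NT replicate 1 and to 0 without NT replicate 2 or without 6 hpd replicate 2. With the 2 groups alone in the fit, Yap1 was also called at 1 hpd and Lats1 at 6 hpd. Over the 9 genes the median log2 fold change was 0.13, 0.15, 0.08 and -0.03 at the 4 time points, where the median of all TUs was -0.022, -0.043, -0.040 and -0.036. All 4 comparisons share the 2 NT libraries. A joint test over the 4 time points called 3 of 9 genes, Amotl2 (adjusted p = 4.9e-05), Tead4 (0.0047) and Ctgf (0.0096), where 12.3% of all TUs were called. Without NT replicate 2 the joint call of Ctgf was lost. Without 2 hpd replicate 2 the joint test called more members, and also more of all TUs. The depleted and NT libraries did not overlap for 5, 6, 7 and 7 of the 9 genes at 0.5, 1, 2 and 6 hpd, beside 34.6%, 49.6%, 49.3% and 58.5% of all TUs.

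**Figure D2:**
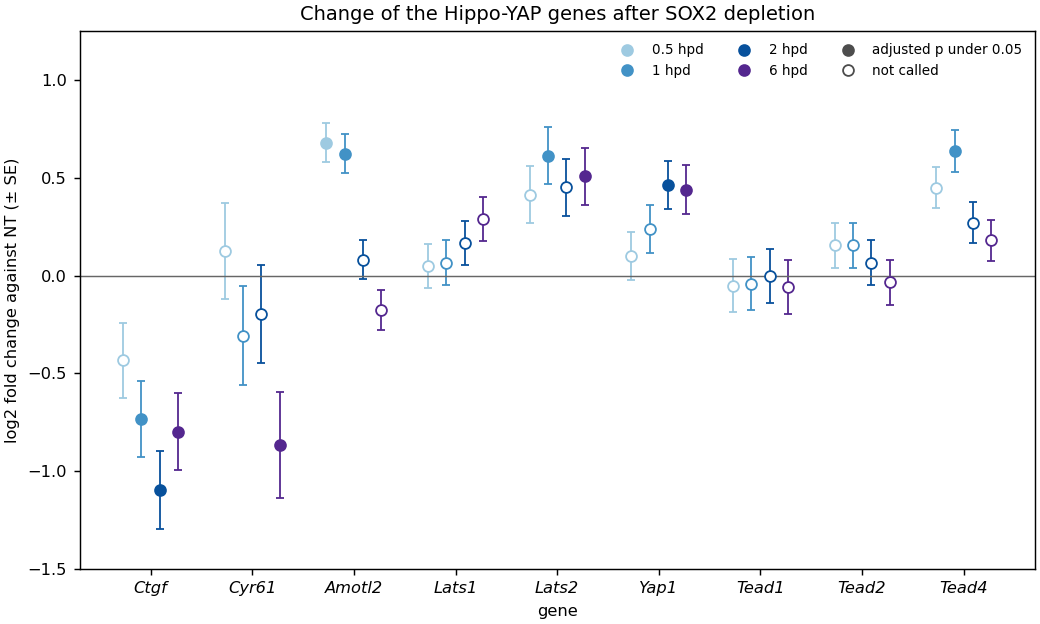
Log2 fold change of each Hippo-YAP gene against NT at 0.5, 1, 2 and 6 hpd (points, edgeR) with its SE (bars), filled where the adjusted p was under 0.05. Ctgf lies below 0 at every time point, reaching -1.10 at 2 hpd, while Amotl2 and Tead4 have their largest positive values at 0.5 and 1 hpd and Yap1 and Lats2 stay above 0 throughout.

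Ctgf (Ccn2 in current annotation), which encodes a secreted matricellular protein and is a standard readout of YAP-TEAD activity, spanned chr10:24595519-24600223 on the plus strand (mm10). Its nascent level in the 2 NT libraries was 7.27 and 7.56 CPM, from 108 and 104 fragments. It was 5.62 and 5.30 CPM at 0.5 hpd and 4.77 and 4.16 CPM at 1 hpd. At 2 hpd it was 3.74 and 3.16 CPM, and at 6 hpd 4.78 and 3.79 CPM. All 8 depleted libraries were below both NT libraries, and the lowest value was the 2 hpd replicate 2 with 54 fragments. The log2 fold change was -0.43 ± 0.19 (SE, n = 2 per group, adjusted p = 0.46) at 0.5 hpd, which was not called. At 1 hpd Ctgf fell by 0.73 ± 0.19 in log2 units (adjusted p = 0.038), and it fell by 1.10 ± 0.20 at 2 hpd (0.0022) and by 0.80 ± 0.20 at 6 hpd (0.013), to 0.467 of the NT level at 2 hpd. None of the steps between successive time points was called for Ctgf (log2 fold changes of -0.30, -0.36 and 0.30, adjusted p of 0.98, 0.95 and 0.66). The call at 2 hpd held under all 17 alternative settings. The call at 1 hpd was lost without either NT library, without either 1 hpd library or without 0.5 hpd replicate 2 (adjusted p of 0.052 to 0.278), with DESeq2 (0.117) and without a count filter (0.052), and the 6 hpd call when NT replicate 2 or 6 hpd replicate 2 was left out (0.080 and 0.132) or DESeq2 was used (0.0501).

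Cyr61 (Ccn1), the closest relative of Ctgf among the genes measured and also a secreted matricellular protein and YAP-TEAD target, spanned chr3:145645044-145650018 on the minus strand. It was the least counted of the 9 genes, with 29 to 97 fragments in a library. Its level was 3.77 and 4.21 CPM in NT, 3.79 and 5.13 CPM at 0.5 hpd and 3.07 and 3.36 CPM at 1 hpd. It was 3.29 and 3.68 CPM at 2 hpd and 2.74 and 1.69 CPM at 6 hpd. Only at 0.5 hpd did its libraries overlap the NT range, and the 6 hpd pair held the lowest values of all. At 6 hpd Cyr61 fell by 0.87 ± 0.27 in log2 units (SE, n = 2 per group, adjusted p = 0.041), while the earlier log2 fold changes of 0.13 ± 0.25, -0.31 ± 0.25 and -0.20 ± 0.25 were not called (adjusted p of 0.95, 0.57 and 0.68). This call ended without either NT library, without either 1 hpd library or without 6 hpd replicate 2 (adjusted p of 0.056 to 0.306), with DESeq2 (0.114) and without a count filter (0.0504), and without 6 hpd replicate 2 the log2 fold change was -0.54. The log2 ratio of Ctgf to Cyr61 within a library averaged 0.88 in NT and 0.42 in the 8 depleted libraries, with the 4 time points pooled. Of these 8, 7 were below both NT libraries. The difference of -0.45 did not pass an exact permutation test (two-sided, p = 0.178, adjusted over 3 pairs 0.178). Of the other CCN genes, Nov and Wisp1, Wisp2 and Wisp3, 0 of 4 were in the table.

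Amotl2 encodes an angiomotin-like protein that binds YAP and holds it at junctions and on actin, and its gene is itself a target of YAP, so it stands on both sides of the pathway. Its TU spanned chr9:102715354-102737327 on the plus strand. The 2 NT libraries had 100.02 and 103.99 CPM. Amotl2 stood at 162 and 165 CPM at 0.5 hpd and 161 and 153 CPM at 1 hpd, and at 109 and 107 CPM at 2 hpd and 96.4 and 84.3 CPM at 6 hpd. The libraries of 0.5 and 1 hpd lay far above NT, those of 2 hpd just above and those of 6 hpd below. The gene rose by a log2 fold change of 0.68 ± 0.10 at 0.5 hpd (SE, n = 2 per group, adjusted p = 0.0029) and 0.62 ± 0.10 at 1 hpd (0.0014), which is 1.60 and 1.54 times the NT level. Both calls held under all 17 alternative settings. At 2 hpd (0.08 ± 0.10, adjusted p = 0.68) and 6 hpd (-0.18 ± 0.10, 0.26) it was not called, and the 2 hpd value turned to -0.03 with library totals alone as scaling.

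The return of Amotl2 was tested directly between neighbouring time points. From 1 to 2 hpd it fell by 0.54 ± 0.10 in log2 units (adjusted p = 0.037), the 1 member of 9 called in that step, where 0.218% of all TUs were. That call held in 9 of 17 alternative settings and was lost with RLE factors (adjusted p = 0.059), in a fit of the 2 groups alone (0.091) and without 1 of 6 libraries (NT replicate 1, either library of 1 or 2 hpd, or 6 hpd replicate 2, adjusted p of 0.053 to 0.445). In the other steps 0 of 9 genes were called by edgeR, both from 0.5 to 1 hpd (0.109% of all TUs) and from 2 to 6 hpd (0.777%), with 0 and 2 at an unadjusted p under 0.05 and 0 and 0 by DESeq2. Tead4 also had a lower value at 2 than at 1 hpd (log2 fold change -0.37 ± 0.11) that did not pass (adjusted p = 0.34).

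**Figure D3:**
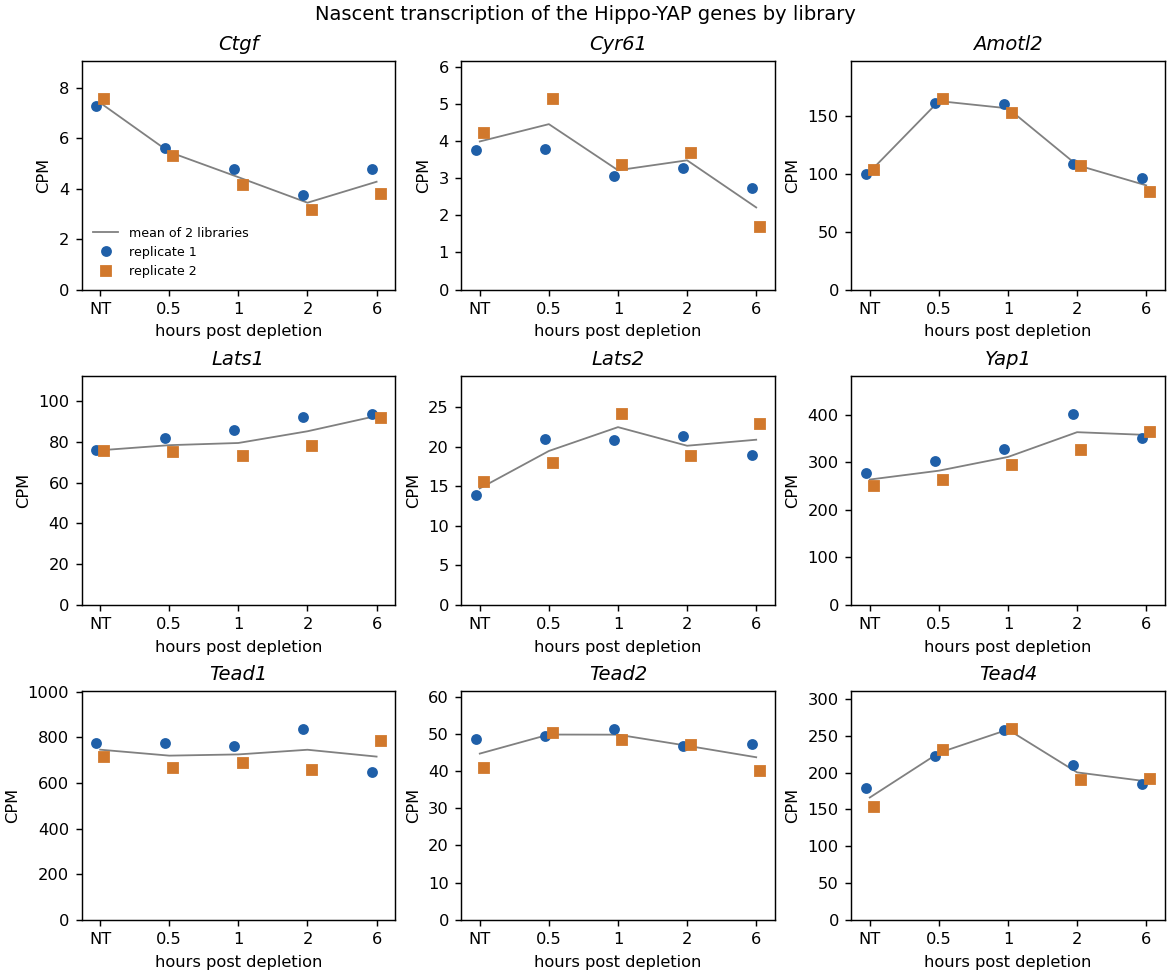
Nascent level (CPM, vertical axes from 0) of the 9 Hippo-YAP genes in each of the 10 libraries, by hours post depletion. Circles are replicate 1, squares replicate 2 and lines the mean of 2, with Ctgf lowest at 2 hpd (3.74 and 3.16 CPM) and Amotl2 highest at 0.5 hpd (162 and 165 CPM).

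LATS1 and LATS2 are the kinases that phosphorylate YAP directly, and Lats2 is also known as a target of YAP. Lats2 (chr14:57677807-57745519, minus strand) had 13.9 and 15.6 CPM in NT, 20.9 and 17.96 CPM at 0.5 hpd and 20.8 and 24.1 CPM at 1 hpd. It had 21.4 and 18.8 CPM at 2 hpd and 18.9 and 22.8 CPM at 6 hpd, so that all 8 depleted libraries were above both NT libraries. Lats2 rose at 1 hpd (log2 fold change 0.61 ± 0.15, adjusted p = 0.020) and 6 hpd (0.51 ± 0.15, 0.029), while the values of 0.41 ± 0.15 at 0.5 hpd and 0.45 ± 0.15 at 2 hpd did not pass (0.27 and 0.064), the latter passing in 1 of the 17 alternative settings. The 1 hpd call was lost without either NT or either 1 hpd library (adjusted p of 0.052 to 0.214), and the 6 hpd call without either NT library or 6 hpd replicate 2 (0.066 to 0.233) and with library totals alone as scaling (0.069). Lats1 (chr10:7681208-7724109, plus strand) had 76.0 and 75.7 CPM in NT and between 72.9 and 93.6 CPM in the depleted libraries. Its 6 hpd libraries, 93.6 and 91.9 CPM, were above NT, but the log2 fold change of 0.29 ± 0.11 did not pass (adjusted p = 0.098) and passed in 3 of the 17 alternative settings, among them a fit of the 2 groups alone (0.042) and one without 2 hpd replicate 2 (0.046). The earlier log2 fold changes were 0.05, 0.07 and 0.17, with the value at 1 hpd at -0.02 under scaling by library totals. The log2 ratio of Lats1 to Lats2 averaged 2.36 in NT and 2.01 in depleted libraries, 7 of 8 of them below both NT values (exact permutation test, two-sided, p = 0.0889, adjusted over 3 pairs 0.133).

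Yap1, the gene of the coactivator, spanned chr9:7909687-8004716 on the minus strand. The NT libraries had 278 and 249.5 CPM, and those of 0.5 hpd 303 and 262 CPM. At 1 hpd Yap1 stood at 329 and 293 CPM, at 2 hpd at 401 and 326 CPM and at 6 hpd at 351 and 364 CPM. From 1 hpd on, the depleted libraries lay above both NT libraries. Yap1 rose at 2 hpd (log2 fold change 0.46 ± 0.12, SE, n = 2 per group, adjusted p = 0.027) and 6 hpd (0.44 ± 0.12, 0.025), which is 1.38 and 1.36 times the NT level, while the values of 0.10 ± 0.12 at 0.5 hpd and 0.24 ± 0.12 at 1 hpd were not called. The call at 2 hpd was lost in a fit of the 2 groups alone (0.083) and without either NT library or 2 hpd replicate 1 (0.058 to 0.223, with a log2 fold change of 0.30 without the last), and the 6 hpd call when NT replicate 2 or either 6 hpd library was left out (0.069 to 0.181).

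The TEAD proteins are the DNA-binding partners of YAP, and the 3 genes followed here differed in their values. Tead4, known for its part in trophectoderm, spanned chr6:128208023-128302003 on the minus strand. Tead4 had 178 and 154 CPM in NT, 223 and 231 CPM at 0.5 hpd and 258 and 259 CPM at 1 hpd. It had 211 and 189.7 CPM at 2 hpd and 185 and 192 CPM at 6 hpd. Every depleted library was above both NT libraries, and the 1 hpd pair was highest. Tead4 rose at 1 hpd (log2 fold change 0.64 ± 0.11, adjusted p = 0.0017), a call that held under all 17 alternative settings. At 0.5 hpd its log2 fold change of 0.45 ± 0.11 missed the threshold (adjusted p = 0.052) and passed under 7 of the 17, including DESeq2, and at 2 and 6 hpd it was 0.27 and 0.18 and not called.

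Tead1, the most counted of the 9 with a mean of 12370 fragments, spanned chr7:112678593-112922051 on the plus strand. It ranged from 647 to 836 CPM over the depleted libraries, around 777 and 715 CPM in NT, and the groups overlapped at every time point. Its log2 fold changes were -0.05, -0.04, -0.00 and -0.06 with an SE of 0.14, none called, and the value at 2 hpd was 0.03 with DESeq2 or RLE factors. Tead2, the TEAD gene known for expression in the earliest embryo and neural precursors, spanned chr7:45215811-45240741 on the plus strand. It had 48.6 and 40.9 CPM in NT and 40.1 to 51.3 CPM in the depleted libraries. Its log2 fold changes of 0.16, 0.15, 0.07 and -0.03 (SE 0.12) were not called, and the value at 2 hpd was -0.05 under scaling by library totals. The log2 ratio of Tead2 to Tead4 within a library averaged -1.89 in NT and -2.19 in depleted libraries, and all 8 depleted libraries were below both NT libraries. The difference of -0.30 had p = 0.0444 in an exact permutation test (two-sided) and did not pass after adjustment over 3 pairs (0.133). The smallest p of this design is 0.0222. After the adjustment none of the 3 pairs could pass by itself, only together with other pairs of low p. The adjusted test therefore could not decide whether this ratio alone differed.

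The surroundings of the genes on both strands were then examined, since TT_chem-seq also reads transcription outside genes. Within 50 kb of the 9 TUs or overlapping them, 45 other TUs were tested, and 7 were called at 1 or more time points, beside 18.8% of all TUs. Distances are given from the start of the gene's TU. Near Ctgf, LOC102638890, an uncharacterised gene on the opposite strand 37.1 to 54.4 kb before the Ctgf start (chr10:24541071-24558437), had 18.6 and 23.4 CPM in NT and 13.9 and 13.8 CPM at 1 hpd. It had 9.40 and 9.82 CPM at 2 hpd and 6.46 and 7.86 CPM at 6 hpd. With 18.4 and 15.4 CPM at 0.5 hpd, all 8 depleted libraries lay below both NT libraries. At 1 hpd LOC102638890 fell by 0.60 ± 0.15 in log2 units (adjusted p = 0.030), it fell by 1.13 ± 0.16 at 2 hpd (0.00025) and by 1.54 ± 0.16 at 6 hpd (1.3e-05). At 0.5 hpd its value of -0.30 ± 0.15 was not called (0.57). The other 3 TUs near Ctgf were thin and not called. An extragenic TU 3.3 to 10.1 kb before the start, on the same strand, had values from -0.24 at 0.5 hpd to -1.43 ± 0.57 at 6 hpd (adjusted p = 0.10) with a mean of 8.2 fragments. An antisense TU across the Ctgf start had a mean of 8.8 fragments, and an extragenic TU 23.0 to 24.3 kb after the start 28.4 fragments.

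**Figure D4:**
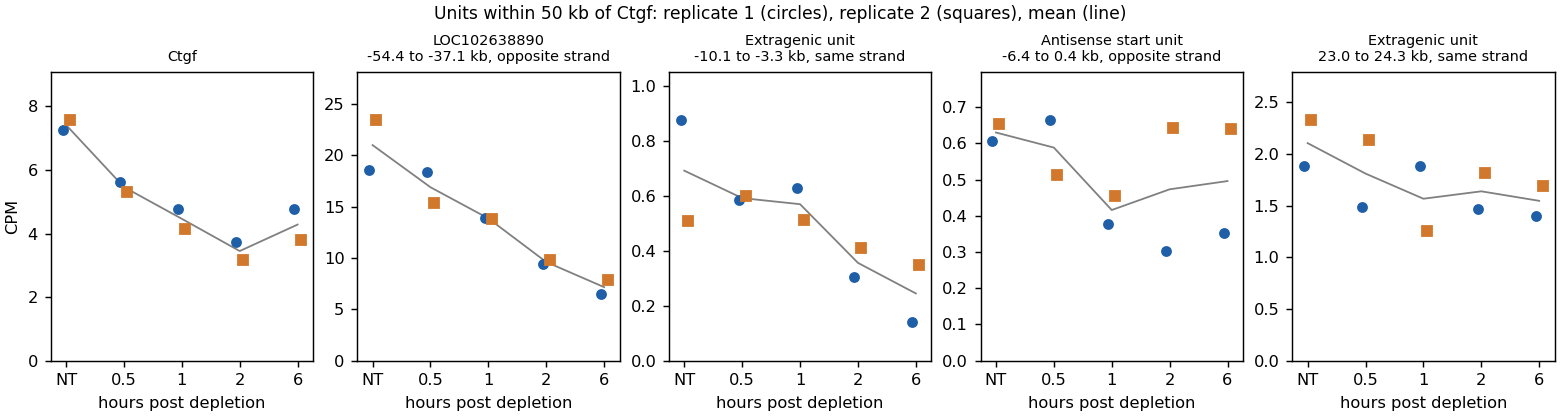
CPM (vertical axes from 0) of Ctgf and the 4 other tested TUs within 50 kb of it, by hours post depletion, with distances in kb from the Ctgf start. LOC102638890, on the opposite strand, went from 18.6 and 23.4 CPM in NT to 6.46 and 7.86 CPM at 6 hpd, and the other 3 TUs stayed under 2.5 CPM.

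Near the other genes, 6 TUs were called. Inside Tead1, an extragenic TU on the opposite strand (chr7:112685968-112692713, 7.4 to 14.1 kb after the start) fell by 1.34 ± 0.32 in log2 units at 1 hpd (adjusted p = 0.021) and by 1.48 ± 0.32 at 2 hpd (0.0082), from a mean of 2.20 CPM in NT to 0.784 CPM at 2 hpd, while Tead1 itself was not called. Past the annotated end of Tead4 (at 128227143), an extragenic TU on the opposite strand (chr6:128200846-128223440) overlaps only the far part of the Tead4 TU. It fell by 1.27 ± 0.21 at 1 hpd (adjusted p = 0.0015), by 1.03 ± 0.20 at 2 hpd (0.0036) and by 1.04 ± 0.20 at 6 hpd (0.0028). Its mean went from 6.35 CPM in NT to 2.64 CPM at 1 hpd. Next to Yap1 on the same strand, 9230110C19Rik, an uncharacterised gene 15.1 to 38.2 kb before the Yap1 start, rose at 2 hpd (0.79 ± 0.20, adjusted p = 0.022) and 6 hpd (0.88 ± 0.20, 0.0084). Ginm1, near Lats1, rose at 6 hpd (0.47 ± 0.13, 0.023), and Cd37, which overlaps the end of Tead2 on the opposite strand and encodes a tetraspanin of lymphocytes, fell at 6 hpd (-0.78 ± 0.22, 0.026). An antisense TU 47.3 to 90.4 kb before the Lats1 start fell at 2 hpd (-0.49 ± 0.15, 0.045), a call that was lost in 11 of 17 alternative settings, 7 of them with a library left out (either NT, 1 hpd or 6 hpd library or 2 hpd replicate 2, adjusted p of 0.060 to 0.190). Leaving out 1 library also ended the calls of Ginm1 (NT replicate 2 or 6 hpd replicate 2, adjusted p of 0.158 and 0.223), Cd37 (either NT library or 6 hpd replicate 2, 0.097 to 0.232, with -0.52 without the last), 9230110C19Rik at 6 hpd (6 hpd replicate 1, 0.054) and the TU inside Tead1 at 2 hpd (2 hpd replicate 1, 0.056). The call of Ginm1 was also lost under scaling by library totals (0.076) and that of Cd37 with DESeq2 (0.065). Where TUs on both strands overlap, reads were assigned by strand in the study's processing.

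The rest of the Hippo pathway was read from a list of 29 further genes, of which 23 were in the table and tested (Taok2, Map4k4, Amot, Fat4, Dchs1 and Mpp5 were not in the table). At 1, 2 and 6 hpd 2, 5 and 6 of 23 rose, where 2.15%, 4.26% and 6.61% of all TUs rose, and the median log2 fold change of the list was 0.05, 0.24, 0.21 and 0.17 at 0.5, 1, 2 and 6 hpd. At 0.5 hpd 0 were called by edgeR (3 at an unadjusted p under 0.05, 0 by DESeq2), and none fell at any time point (at most 1 at an unadjusted p under 0.05, 0 by DESeq2). Frmd6, a FERM-domain protein upstream of the kinases, rose to 223 ± 4.2 CPM at 6 hpd from 123 ± 4.8 CPM in NT (SD, n = 2), a log2 fold change of 0.86 ± 0.10 (adjusted p = 3.4e-05). Wwc2 and Wwc1, scaffold proteins of the KIBRA family that aid LATS activation, rose by 0.61 ± 0.12 at 6 hpd (0.0035) and by 0.64 ± 0.12 at 2 hpd (0.0028). Taok3, a kinase upstream of MST1/2, rose by 0.66 ± 0.13 at 6 hpd (0.0035). Frmd6 and Wwc2 were called at 1, 2 and 6 hpd and Wwc1 and Taok3 at 2 and 6 hpd. Limd1, a LIM protein that binds and restrains LATS kinases, rose by 0.66 ± 0.13 at 6 hpd (0.0022), and Vgll4, which competes with YAP for TEAD proteins, by 0.77 ± 0.18 (0.0075). The list thus held called genes with opposite roles towards YAP, and Wwtr1, the gene of TAZ (0.20 at 6 hpd, adjusted p = 0.25), Tead3 (0.0013, 0.997), Nf2 (-0.10, 0.58), Stk3 (0.11, 0.61) and Stk4 (0.14, 0.45) were not called. Without NT replicate 2 the calls of Wwc1 at 2 hpd (adjusted p = 0.056) and of Wwc2 and Taok3 at 6 hpd (0.0525 and 0.053) were lost, and the number called was 0, 1 and 3 at 1, 2 and 6 hpd, and that of Vgll4 without NT replicate 1 (0.0503) or 6 hpd replicate 1 (0.058). The number was also 0 at 1 hpd without either 1 hpd library and 4 without either 2 hpd library, and at 2 hpd 3 without 2 hpd replicate 1 and 8 without 2 hpd replicate 2. With the 2 groups alone in the fit it was 6 at 1 hpd.

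Among other genes known as YAP-TEAD targets, those called rose, while Ctgf was called lower from 1 hpd on. Their difference from Ctgf was not tested. Of 18 listed, 15 were in the table and 13 tested, and 1, 1, 3 and 3 rose at 0.5, 1, 2 and 6 hpd (beside 0.527%, 2.15%, 4.26% and 6.61% of all TUs), with list medians of -0.04, -0.00, -0.02 and 0.20. None fell by edgeR or DESeq2 at any time point (2 at an unadjusted p under 0.05 at 1 hpd). F3, tissue factor, the starter of blood coagulation, went from 3.12 ± 0.92 CPM in NT to 6.60 ± 0.34 CPM at 0.5 hpd and 14.7 ± 1.6 CPM at 6 hpd (SD, n = 2). It rose at every time point, with log2 fold changes of 1.06 ± 0.22, 1.10 ± 0.22, 1.69 ± 0.21 and 2.22 ± 0.21 (adjusted p of 0.023, 0.0061, 9.8e-05 and 4.2e-06). Crim1, a transmembrane protein that binds BMPs, rose at 6 hpd (1.15 ± 0.15, 8.0e-05), and Arhgef17 at 2 and 6 hpd (0.36 ± 0.11 and 0.50 ± 0.11, 0.046 and 0.0052). Ptpn14, a phosphatase that binds YAP and stands in both lists, rose at 2 hpd (0.56 ± 0.14, 0.023), a call lost under scaling by library totals (0.077) and without either NT library or 2 hpd replicate 1 (0.099 to 0.169), and the 6 hpd call of Arhgef17 was lost without NT replicate 2 (0.062). Axl, a receptor tyrosine kinase (-0.02 at 6 hpd, adjusted p = 0.98), and Nuak2, a kinase (-0.37, 0.22), were not called. Without a library the number called fell to 0 at 0.5 hpd (NT replicate 2 or either 0.5 hpd library, and under scaling by library totals), to 0 at 1 hpd (NT replicate 2 or 1 hpd replicate 1) and to 1 at 2 hpd (NT replicate 2 or 2 hpd replicate 1, and under library totals).

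Ctgf and Cyr61 also answer to serum response factor (SRF) and belong to the genes that react first to stimulation, so a list of 18 immediate early and SRF target genes was read beside them, of which 13 were in the table and 11 tested. In this list 3, 4, 5 and 4 of 11 rose at 0.5, 1, 2 and 6 hpd (beside 0.527%, 2.15%, 4.26% and 6.61% of all TUs), and 2 fell at 6 hpd (beside 9.2% of all TUs), with list medians of 0.41, 0.62, 0.23 and 0.08. Junb, an AP-1 subunit, rose at 0.5 and 1 hpd (0.86 ± 0.12 and 0.64 ± 0.12, adjusted p of 0.0015 and 0.0039), had -0.14 ± 0.12 at 2 hpd (0.50) and fell by 0.83 ± 0.13 at 6 hpd (0.00034). Its levels were 27.1 CPM in NT, 49.5 CPM at 0.5 hpd and 15.3 CPM at 6 hpd. Atf3, a stress-induced factor of the same family, rose at every time point, by 0.62 ± 0.14 to 1.59 ± 0.14 (adjusted p of 0.044 at 0.5 hpd to 3.7e-06 at 2 hpd). Zfp36, which promotes mRNA decay, rose at every time point too, by 0.89 ± 0.16 at both 0.5 and 1 hpd (0.013 and 0.0039), 0.70 ± 0.16 at 2 hpd (0.013) and 0.57 ± 0.17 at 6 hpd (0.032). Vcl, the adhesion protein vinculin, rose by 0.62 ± 0.13 at 1 and 2 hpd (0.0084 and 0.0056) and by 0.41 ± 0.13 at 6 hpd (0.041). Jun, the AP-1 subunit with a mean of 15.2 fragments, rose at 2 and 6 hpd (1.49 ± 0.41 and 1.72 ± 0.41, 0.031 and 0.0096), the latter lost with DESeq2 (0.063) and without NT replicate 2 or 6 hpd replicate 2 (0.062 and 0.078). Dusp1, a phosphatase of MAP kinases, fell by 0.71 ± 0.13 at 6 hpd (0.0018). Without NT replicate 2 the calls of Zfp36 at 1 hpd (0.054) and Vcl at 2 hpd (0.061) were lost, the first also without 1 hpd replicate 1 (0.057). Without NT replicate 2 the number called was 1, 2, 1 and 3 at 0.5, 1, 2 and 6 hpd. It was 1 at 0.5 hpd when NT replicate 1 or 0.5 hpd replicate 2 was left out, 2 at 1 hpd without 1 hpd replicate 1, and 3 at 2 hpd when NT replicate 1 or 2 hpd replicate 1 was. At 2 hpd it was also 3 with DESeq2 or with a mean of at least 50 fragments and 2 with library totals, in place of 5.

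**Figure D5:**
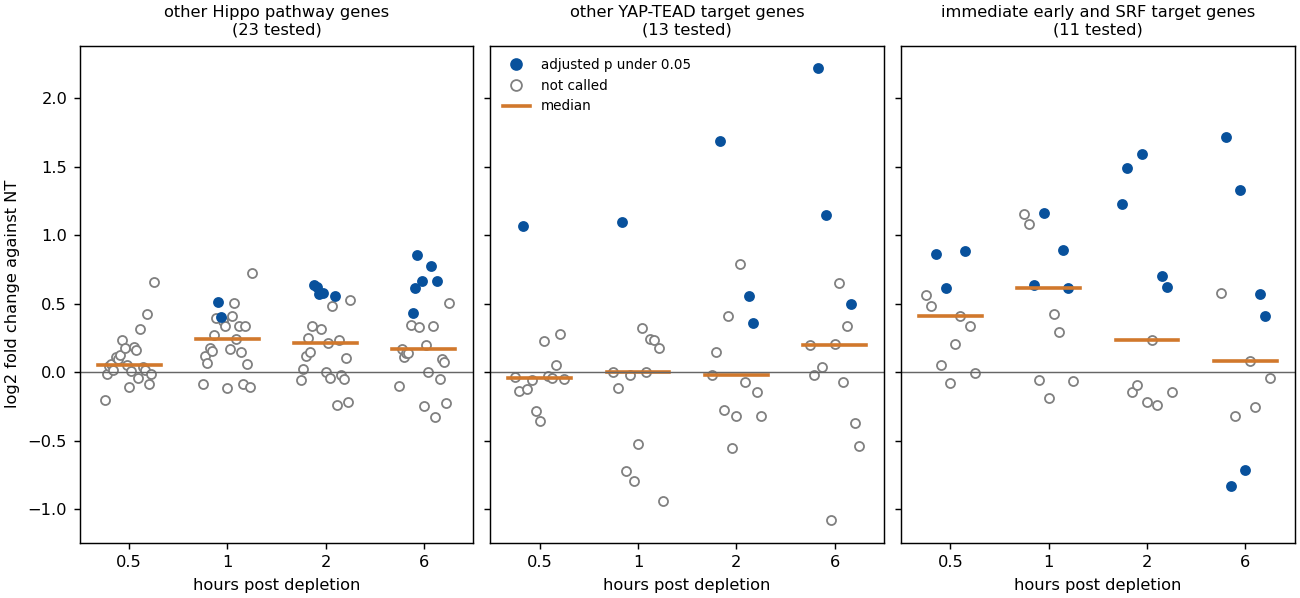
Log2 fold change against NT (vertical axis, edgeR) of each tested gene of the 3 lists at 0.5, 1, 2 and 6 hpd, filled where the adjusted p was under 0.05, with the list median as a bar. The Hippo list has medians of 0.05 to 0.24, and F3 (2.22 at 6 hpd) is the highest point of the YAP-TEAD targets.

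The genes whose course over the 10 libraries was most like that of Ctgf were Hus1 (Pearson r = 0.972 of log2 CPM), Prdx6 (0.969), Pkmyt1 (0.968), Dusp27 (0.961) and 1700096K18Rik (0.958), among 11922 genes with a mean of at least 50 fragments. The correlation is a description over 10 libraries that share depth and groups, and 423 of these genes had an r over 0.8. Dusp27 had the change nearest in size, -1.08 ± 0.14 at 2 hpd (adjusted p = 0.00015), against -0.61 ± 0.10 for Prdx6, a peroxiredoxin (0.00072), and -0.26 ± 0.10 for Hus1, a DNA damage checkpoint protein (0.12, not called). For Cyr61 the most alike were Gltscr2 (0.953), Aplp1 (0.938), Cpne5 (0.931), Gm11963 (0.926) and LOC108169075 (0.925), with 216 genes over 0.8.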

How the data were processed

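TT_chem-seq libraries of SOX2-FKBP mouse embryonic stem cells were analysed in 5 groups of 2 (NT and 0.5, 1, 2 and 6 hpd). The authors deposited fragment counts for each TU, raw and not normalized, and TU positions on mm10 were deposited by the authors in base pairs. Per the submitters' processing notes and the methods, the authors aligned reads with BWA 0.7.17-r1188, filtered them with SAMtools 1.10 (mapping quality of at least 10), removed duplicates with Picard 2.12.0, split alignments by strand, called TUs on pooled data and counted fragments in each.

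Following the study, TUs had to exceed 10 fragments in 2 or more libraries, and these were fitted in edgeR 4.0.16 (R 4.3.3) with TMM factors, 1 coefficient per group over all 10 libraries, and quasi-likelihood F-tests. Calls used an adjusted p under 0.05 (Benjamini-Hochberg, over all TUs tested). The SE is the log2 fold change over the square root of F, and the biological coefficient of variation was 10%. Log2 CPM used a prior count of 2. Depth differed between libraries by the totals given in the report. Among the members, the precision of Ctgf and Cyr61, with few fragments, is the lowest. Within-library ratios were tested by exact permutation (SciPy 1.17.1, Python 3.11.15). The edgeR fit was also tried on simulated data, and the permutation test was not.

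The members and lists were chosen with earlier results of these data known. Named were the 9 members, up to 6 called genes per list by the smallest joint p (others as uncalled examples, picked by role after their values were seen), called neighbours within 50 kb, and the 5 genes most correlated with Ctgf and with Cyr61. Alternatives were DESeq2 1.42.0, RLE factors, library totals, no filter, a mean of at least 50 fragments, only the 2 groups compared, the replicate number as a block, a prior count of 0.5, the RefSeq gene span as length, and each library left out. Transcript length and the alternatives of lists, neighbours and most alike genes were added after seeing the data, the latter run at the time point of the smallest p. Gene names, synonyms, exons and promoters were taken from RefSeq (GRCm38.p6).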

Additional observations from a re-analysis of the deposited data

How the results depend on the processing

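Of the 36 comparisons of a member with NT, 11 were called, and the calls of Amotl2 at 0.5 and 1 hpd, Tead4 at 1 hpd and Ctgf at 2 hpd held under all 17 alternatives, while the others were lost under 3 to 7. Members called at 0.5 hpd were 2 in place of 1 with DESeq2, with library totals, with a mean of at least 50 fragments, with the 2 groups alone and with the replicate block, Tead4 being the gene gained. Over the 7 alternatives that keep every library, members called ranged from 3 to 5, 1 to 3 and 2 to 5 at 1, 2 and 6 hpd, the highest with the 2 groups alone at 1 hpd (Yap1 gained, adjusted p = 0.039) and 6 hpd (Lats1, 0.042) and with the replicate block at 2 hpd (Lats2, log2 fold change 0.46, 0.020) and 6 hpd (Lats1, 0.023). With that block the Hippo list had 1 gene called at 0.5 hpd in place of 0, 6 at 1 hpd in place of 2 and 8 at 2 hpd in place of 5. With the 2 groups alone, members called at 2 hpd were 1 and TUs called at 1 hpd 3112. With DESeq2, members called at 6 hpd were 2, and with RLE factors or the 2 groups alone (added after seeing the data for this step) members called from 1 to 2 hpd were 0. Replicate numbers did not pair the libraries by the rule used (8 of 10 correlations between groups over 0.1, from 0.0742 to 0.291). Fitted with this number as a replicate block, called TUs were 1120, 3188, 5446 and 7430 at 0.5, 1, 2 and 6 hpd. The joint test with the block called 6 members and 7028 of 28459 TUs, against 3514 TUs in the main fit. Leaving out each library in turn, TUs called ranged from 82 to 507 at 0.5 hpd, 645 to 2063 at 1 hpd, 1159 to 3730 at 2 hpd and 1925 to 5331 at 6 hpd, the lowest each time without NT replicate 2. Members called ranged from 1 to 2, 2 to 4, 1 to 2 and 0 to 5 at these times, 0 at 6 hpd when NT replicate 2 or 6 hpd replicate 2 was left out, from 0 to 1 between 1 and 2 hpd and from 2 to 5 in the joint test. The difference of within-library log2 ratios ranged from -0.43 to -0.26 for Lats1 to Lats2 and from -0.33 to -0.26 for Tead2 to Tead4, each passing the adjusted threshold once. Uncalled values that changed sign were, with library totals, Lats1 at 1 hpd (-0.024), Tead2 at 2 hpd (-0.047) and Amotl2 at 2 hpd (-0.035), and Tead1 at 2 hpd with DESeq2 (0.032), RLE factors (0.032), no filter (0.0060) and the 2 groups alone (0.018). With a library left out, those of Cyr61 (-0.0632 to 0.366), Tead1 (-0.160 to 0.0643), Yap1 (-0.00719 to 0.211) and Lats1 (-0.0135 to 0.119) at 0.5 hpd, Tead1 (-0.116 to 0.0350) and Lats1 (-0.0562 to 0.179) at 1 hpd, Tead2 (-0.0516 to 0.193) and Tead1 (-0.186 to 0.150) at 2 hpd, and Tead2 (-0.145 to 0.110) and Tead1 (-0.204 to 0.0859) at 6 hpd did. With library totals alone the median of all TUs moved to -0.13, -0.16 and -0.13 at 1, 2 and 6 hpd. The cause of these differences was not tested. With 54 to 144 fragments for Ctgf and 29 to 97 for Cyr61 in a library, the SEs of their log2 fold changes (0.19 to 0.20 and 0.25 to 0.27) were the largest of the 9.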
